A study of Mus musculus with 18 samples.

Results

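A set of 10 genes tied to neutrophils was followed across 18 arrays of mouse mammary tumours: S100a8, S100a9, Camp, Ngp, Ltf, Lcn2, Pglyrp1, Cxcl1, Cxcl2 and Csf3. They were taken as the array features whose platform symbol is one of these names. All 10 of the 10 were measured, by 1 feature each, among 16887 genes that could be named. Each array set RNA of a primary mammary tumour, labelled with Cy5, against total RNA of whole mouse, labelled with Cy3. The tumours came from FVB mice, and every title carries MMTV, the promoter of mouse mammary tumour virus that drives transgenes mainly in mammary epithelium, and Wnt1, so the controls carried the Wnt1 transgene too. Wnt1 alone gave 6 control arrays. The groups labelled Wnt1_iFGFR1, Wnt1_iFGFR2 and Wnt1_iR2 gave 4 arrays each, and are shortened below by leaving out Wnt1. What iFGFR1, iFGFR2 and iR2 stand for is not spelled out in the labels, which give no age, no agent that would switch a receptor on, and no word on whether each array is a separate animal. All p-values therefore measure spread among these arrays, part or all of which may be technical. The series title asks how FGF receptor and Wnt-1 signalling act together in mammary tumours.

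Neutrophils are short-lived white blood cells that leave the bone marrow, enter tissue along gradients of chemokines and kill microbes with proteins stored in granules. S100A8 and S100A9 pair to form calprotectin, the most abundant protein complex of the neutrophil cytosol, which binds calcium and withholds zinc and manganese from microbes. The granule proteins among the 10 are made while the cell matures in the marrow, whereas Cxcl1 and Cxcl2 are secreted by many cells of an inflamed tissue, epithelium included, and act on the receptor Cxcr2. Several of the genes are not exclusive to neutrophils. Lactoferrin, lipocalin-2 and calprotectin are also made by glandular or squamous epithelium, and lactoferrin is secreted into milk. In tumour tissue measured in bulk, fewer cells of a type and less RNA per cell cannot be told apart.

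The reference holds all tissues of the mouse, bone marrow among them. The level of a gene here is thus the log2 ratio of tumour over whole mouse. A ratio of 0 is read as the same share of RNA as in the whole animal. Column medians ran from -0.02 to 0.01 and the normalization is not known, so this reading was not tested. A difference between groups is a difference of mean log2 ratios, and 1 unit is a doubling on the reading that the deposited ratios are log2. Group values are the mean ± SD over arrays. Tests are limma's on all 18 arrays, with p-values adjusted by Benjamini-Hochberg over all 16887 genes and a threshold of 0.05. The luminal epithelial markers, Krt8, Krt18 and Elf5 among the 11 of them, averaged 1.66 in the Wnt1 group and 2.37, 2.15 and 2.28 in iFGFR1, iFGFR2 and iR2, all above the whole animal, as fits a mammary tumour. Of 38 neutrophil granule and surface genes looked for beside the 10, 31 were measured. Ly6g, Retnlg and Fpr1, which are among the most specific, were not among them.

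Some arrays stood apart before any gene was compared. The spread of all ratios on an array, as the median absolute deviation, was 0.553 to 0.602 on the iR2 arrays against 0.632 to 0.836 in iFGFR1 and 0.669 to 0.894 in iFGFR2. The iR2 arrays also correlated more closely with each other (mean r 0.914 to 0.925) than arrays of any other group did. Wnt1 replicate 3 had the lowest spread (0.569) and the lowest mean correlation with its own group (0.747, against 0.809 to 0.844) of the 6 Wnt1 arrays. On that array Padi4 stood at 1.02 and the epidermal protease gene Klk7 at -0.08, while the other Wnt1 arrays did not exceed -0.42 for Padi4 or -4.67 for Klk7. The numbers in the sample titles are highest on the iR2 arrays, so a drift with that number and the iR2 group can hardly be told apart.

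Some of the promoters of these genes carry short motifs for NF-kB or C/EBP factors. The sequences are shown because the chemokine pair, Pglyrp1 and the calprotectin pair are the genes the results turn on. RefSeq windows on GRCm38.p6 (250 bases before to 50 after the start) were found for 9 of the 10, all but Csf3. A kappa-B consensus, the site of NF-kB, was present on either strand in 4 of the 9 and in 8.5% of all 32851 windows. The 3 matches that lay before the start are shown with their flanks, 5′ to 3′ on the gene's strand, with the match in capitals. The Cxcl1 and Cxcl2 matches each merge 2 overlapping hits and begin 71 and 97 bases before the start, and the Pglyrp1 match begins 93 bases before it.
Cxcl1, chr5:90891154-90891204, plus strand: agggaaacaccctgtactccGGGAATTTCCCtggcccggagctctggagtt
Cxcl2, chr5:90903782-90903832, plus strand: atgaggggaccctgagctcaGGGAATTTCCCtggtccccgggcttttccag
Pglyrp1, chr7:18884577-18884626, plus strand: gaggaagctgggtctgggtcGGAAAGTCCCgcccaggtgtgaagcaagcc
The same 11 letters stand in the chemokine pair, whose genes lie beside each other on chromosome 5 with 0 coding genes between them. The core letters TTNNGNAA of a C/EBP site, bound by the factors that drive granulocyte genes, were present on either strand in 6 of the 9, among them both calprotectin genes, and in 40.7% of all windows, so their presence sets few genes apart. The AP-1 letters TGANTCA were in 0 of the 9 windows and in 7.8% of all. A match is a description of letters and not of binding. The calprotectin matches nearest the start, with the 8 matching bases in capitals, begin 117 and 130 bases before it.
S100a8, chr3:90668934-90668981, plus strand: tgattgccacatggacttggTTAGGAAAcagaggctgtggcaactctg
S100a9, chr3:90695824-90695871, minus strand: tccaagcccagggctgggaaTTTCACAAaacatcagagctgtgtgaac
S100a8 and S100a9 are also neighbours, on chromosome 3 with 0 coding genes between them. Camp, Ngp and Ltf share chromosome 9, with 8 coding genes between Camp and Ngp and 20 between Ngp and Ltf.

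In iFGFR1 tumours, 6 of the 10 genes passed the test against Wnt1, 5 higher and 1 lower, where 15.4% of all genes passed. Pglyrp1, S100a8, Cxcl1, S100a9 and Lcn2 were higher and Ltf was lower. The median difference of the 10 genes was 1.12, against 0.02 over all genes tested. The 10 genes were chosen with earlier results of these data known. How far that choice shaped the contrasts with all genes was not tested. In iFGFR2 tumours 1 of the 10 passed (Pglyrp1, higher) where 3.43% of all genes did, and the median difference was -0.04 against 0.01. In iR2 tumours 2 of the 10 passed (Pglyrp1 higher, Camp lower) where 7.10% of all genes did, and the median was -0.09 against -0.05. These 3 comparisons share the Wnt1 arrays. With the F test over the 4 groups, 8 of the 10 differed, all but Ltf (adjusted p = 0.0668) and Csf3 (0.63), where 19.6% of all genes did.

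**Figure D1:**
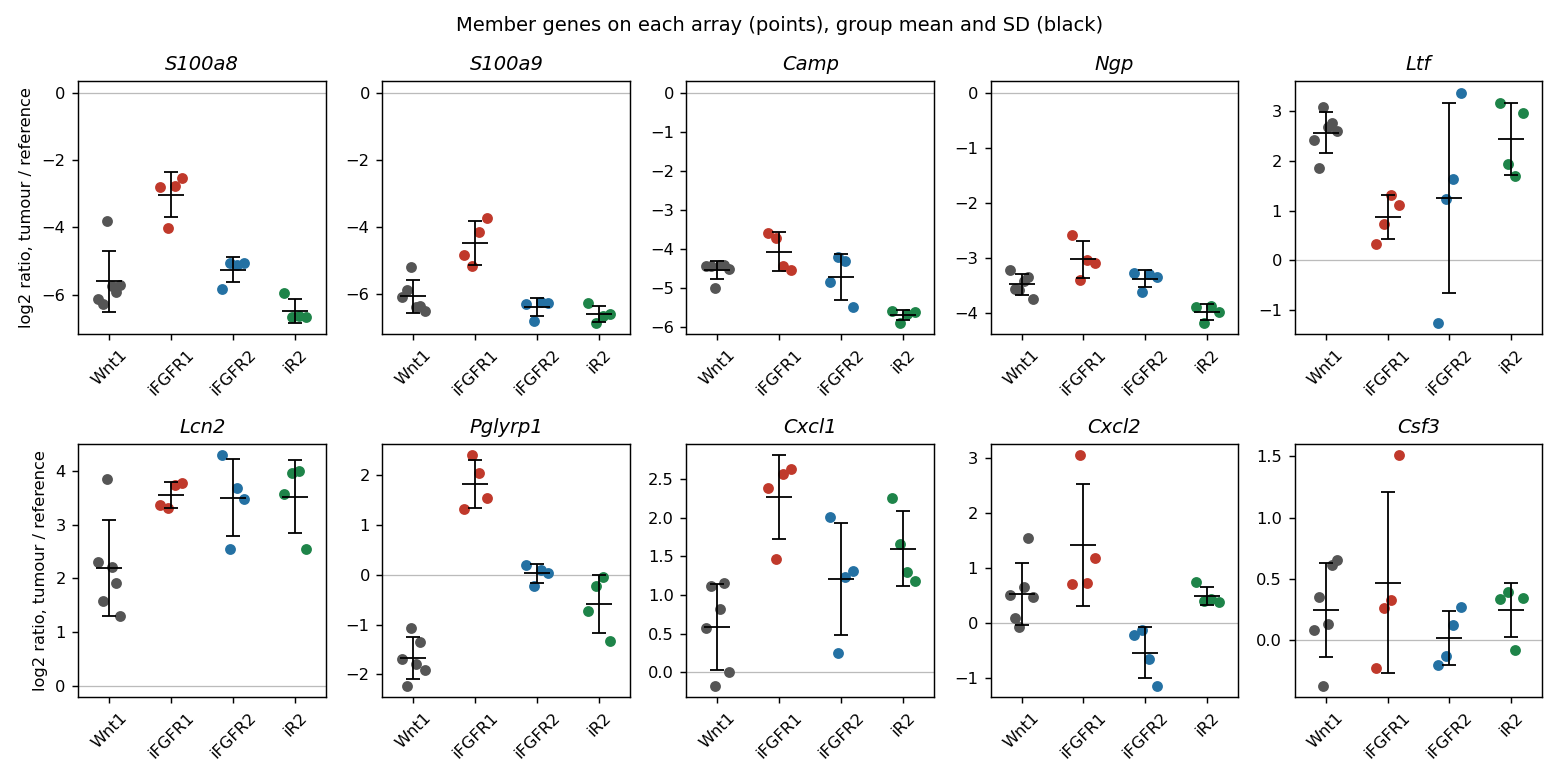
Log2 ratio of tumour over whole-mouse reference (vertical axis, a scale of its own in each panel) for the 10 genes on each of the 18 arrays, by group. Points are arrays, and black marks give the group mean and SD. Pglyrp1 and S100a9 in iFGFR1 lie above every Wnt1 array, and S100a8 does on 3 of 4 arrays, with Wnt1 replicate 3 as the high point among the controls.

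Calprotectin was far below the whole-mouse level in every group. On the Wnt1 arrays S100a8 ran from -6.27 through a median of -5.83 to -3.80. The 4 iFGFR1 arrays stood at -2.80, -4.01, -2.79 and -2.54. The groups overlapped at 1 array on each side: Wnt1 replicate 3 lay above iFGFR1 replicate 2, and the other 3 iFGFR1 arrays lay above every Wnt1 array. S100a8 rose by 2.56 in iFGFR1 (95% interval 1.77 to 3.36, SE 0.38, limma adjusted p = 0.000207), a 5.91-fold difference, and was number 124 of all genes by p. Without Wnt1 replicate 3 the difference was 2.92.

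S100a9, the larger subunit of the pair, ran in Wnt1 from -6.53 through a median of -6.23 to -5.20. The iFGFR1 arrays stood at -4.86, -5.18, -4.17 and -3.74, each above every Wnt1 array. The rise was 1.59 (95% interval 1.02 to 2.17, SE 0.27, limma adjusted p = 0.000752), or 3.02-fold. Both subunits thus rose, and both stayed below the level of the whole animal on every iFGFR1 array.

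The calprotectin genes did not pass the test in the other receptor groups. S100a8 stood at -5.82, -5.07, -5.10 and -5.05 on the iFGFR2 arrays, close to Wnt1 (difference 0.34, limma adjusted p = 0.662), and at -5.94, -6.68, -6.63 and -6.67 on the iR2 arrays. Of the iR2 arrays, 3 lay below every Wnt1 array, with a difference of -0.88 (95% interval -1.68 to -0.09, limma adjusted p = 0.165). S100a9 stood at -6.32, -6.81, -6.25 and -6.27 in iFGFR2 and at -6.29, -6.88, -6.67 and -6.62 in iR2, with differences of -0.33 and -0.53 (limma adjusted p = 0.526 and 0.252). When each array was first scaled to the same spread, the iR2 differences were -2.10 for S100a8 and -1.71 for S100a9, and both passed (limma adjusted p = 0.00115 and 0.00835). Whether the narrower spread of the iR2 arrays takes part in these values was not tested. How far the tumour signal stood above background is not known for ratios this far below 0.

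Among the granule genes, Pglyrp1 differed most. It encodes a peptidoglycan recognition protein that binds bacterial cell walls and is stored in neutrophil granules. The Wnt1 arrays ran from -2.23 through a median of -1.73 to -1.07, all below the whole-mouse level. The iFGFR1 arrays stood at 1.32, 2.41, 2.05 and 1.56, the iFGFR2 arrays at 0.20, -0.22, 0.11 and 0.03, and the iR2 arrays at -0.72, -0.23, -0.05 and -1.34. All arrays of iFGFR1 and iFGFR2 and 3 of 4 in iR2 lay above every Wnt1 array. The rise was 3.50 in iFGFR1 (11.3-fold, 95% interval 2.94 to 4.06, SE 0.27, limma adjusted p = 2.07e-07), the second of all genes by p. It was 1.70 in iFGFR2 (3.25-fold, 95% interval 1.14 to 2.26, limma adjusted p = 0.00375). In iR2 it was 1.09 (2.12-fold, 95% interval 0.53 to 1.64, limma adjusted p = 0.0203). The iR2 call was lost without iR2 replicate 1, 2 or 3 (highest adjusted p = 0.0963) and with the title number as a covariate (0.71, adjusted p = 0.614). Pglyrp1 was the only one of the 10 to pass in all 3 comparisons with Wnt1.

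Lcn2 encodes lipocalin-2, a granule and epithelial protein that captures bacterial iron carriers. It was high in every group. The Wnt1 arrays ran from 1.30 through a median of 2.06 to 3.86, the highest being replicate 3. The iFGFR1 arrays stood at 3.38, 3.31, 3.74 and 3.78, the iFGFR2 arrays at 4.30, 2.56, 3.69 and 3.47, and the iR2 arrays at 3.57, 3.97, 4.00 and 2.55. The 3 receptor groups had nearly the same mean, 3.55 ± 0.24, 3.51 ± 0.72 and 3.52 ± 0.68 (SD, n = 4 each), against 2.20 ± 0.90 in Wnt1 (SD, n = 6). The rise was 1.36 in iFGFR1 and passed (2.56-fold, 95% interval 0.51 to 2.21, limma adjusted p = 0.0291). The differences of 1.31 in iFGFR2 and 1.33 in iR2 missed the threshold (limma adjusted p = 0.0715 and 0.0524). Without Wnt1 replicate 3 the differences were 1.69, 1.64 and 1.66, and all passed (limma adjusted p = 0.00145, 0.00686 and 0.00371). The iFGFR1 call was lost when each of 6 other arrays was left out (highest adjusted p = 0.0741) and when arrays were scaled to the same spread (adjusted p = 0.235).

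Ltf encodes lactoferrin, the iron-binding protein of specific granules and of milk. The Wnt1 arrays ran from 1.87 through a median of 2.64 to 3.09, above the whole-mouse level throughout. The iFGFR1 arrays stood at 0.33, 0.73, 1.31 and 1.12, each below every Wnt1 array. It fell by 1.70 (95% interval -2.85 to -0.54, SE 0.55, limma adjusted p = 0.0435), and thus moved the other way from the rest of the granule genes that passed. This call is near the threshold: it was lost when any of 10 of the 18 arrays was left out (highest adjusted p = 0.121, without iFGFR1 replicate 1), with array weights (adjusted p = 0.0612) and with every feature tested on its own (0.0534). The iFGFR2 arrays scattered over more than 4 units, at -1.26, 1.24, 1.64 and 3.38, and no other gene of the 10 had as wide an SD in any group (1.91, n = 4). The iFGFR2 difference of -1.32 did not pass (limma adjusted p = 0.175), and without replicate 4 it was -2.03 and passed (0.0406). The iR2 arrays stood at 3.16, 1.95, 1.70 and 2.97, a difference of -0.13 (limma adjusted p = 0.928).

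Camp, the cathelicidin antimicrobial peptide, and Ngp, the related neutrophilic granule protein, are products of maturing neutrophils. They were low in all tumours and lowest in iR2. Camp ran in Wnt1 from -5.02 through a median of -4.45 to -4.43, and stood at -5.60, -5.91, -5.68 and -5.63 in iR2, each below every Wnt1 array. It fell by 1.15 (2.22-fold, 95% interval -1.66 to -0.64, limma adjusted p = 0.00983), and the call held with each array left out. It was lost under quantile normalization (-0.61, adjusted p = 0.115) and with the title number as a covariate (-0.52, adjusted p = 0.68). Ngp ran in Wnt1 from -3.74 through a median of -3.48 to -3.21, and stood at -3.89, -4.18, -3.87 and -3.98 in iR2, again below every Wnt1 array. Its difference of -0.50 missed the threshold (95% interval -0.86 to -0.14, limma adjusted p = 0.0788).

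In iFGFR1, Camp stood at -3.59, -3.72, -4.46 and -4.55 and Ngp at -2.58, -3.40, -3.04 and -3.08. Replicates 1 and 2 lay above every Wnt1 array for Camp, and all but replicate 2 did for Ngp. The differences were 0.47 and 0.45 (95% intervals -0.04 to 0.98 and 0.09 to 0.81), and neither passed (limma adjusted p = 0.201 and 0.0798). Without iFGFR1 replicate 2 the Ngp difference was 0.57 and passed (0.0308), and with arrays scaled to the same spread the Camp difference was 1.06 and passed (0.035). In iFGFR2, Camp stood at -4.86, -4.21, -4.33 and -5.50 and Ngp at -3.28, -3.61, -3.28 and -3.34, with differences of -0.17 and 0.10 (limma adjusted p = 0.738 and 0.789).

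The attractants did not move together. Cxcl1 is a chemokine that draws neutrophils through Cxcr2. The Wnt1 arrays ran from -0.17 through a median of 0.70 to 1.16, and the iFGFR1 arrays stood at 2.39, 1.46, 2.57 and 2.63, each above every Wnt1 array. The rise was 1.68 (3.20-fold, 95% interval 0.97 to 2.39, SE 0.34, limma adjusted p = 0.0026) and held with each array left out. The iFGFR2 arrays stood at 2.01, 0.25, 1.24 and 1.31 and the iR2 arrays at 2.25, 1.66, 1.29 and 1.18, so that 3 of 4 and 4 of 4 lay above every Wnt1 array. Their differences of 0.62 and 1.01 did not pass (limma adjusted p = 0.308 and 0.0731). The iR2 difference passed when arrays were scaled to the same spread (1.35, adjusted p = 0.00589).

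Cxcl2, the neighbour of Cxcl1 with the same receptor, ran in Wnt1 from -0.07 through a median of 0.51 to 1.55. The iFGFR1 arrays stood at 0.72, 3.06, 0.73 and 1.19, and replicate 2 alone lay above every Wnt1 array. The difference of 0.88 did not pass (95% interval 0.10 to 1.66, limma adjusted p = 0.121), and without that replicate it was 0.34. The iFGFR2 arrays stood at -0.21, -0.12, -0.65 and -1.13, each below every Wnt1 array. That difference of -1.07 also missed the threshold (95% interval -1.86 to -0.29, limma adjusted p = 0.106), and it passed with array weights (0.0375) and without iFGFR1 replicate 2 (0.0316). The iR2 arrays lay within the Wnt1 range, at 0.75, 0.41, 0.45 and 0.39.

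Csf3 encodes G-CSF, the growth factor that drives neutrophil production in the marrow. Its ratios lay near 0 in all groups. The group means were 0.25 ± 0.38 in Wnt1 (SD, n = 6), 0.47 ± 0.74 in iFGFR1, 0.02 ± 0.22 in iFGFR2 and 0.25 ± 0.22 in iR2 (SD, n = 4 each). The highest array was iFGFR1 replicate 4 at 1.51, and the differences from Wnt1 were 0.22, -0.23 and 0.01 (limma adjusted p = 0.615, 0.678 and 0.995). The 95% interval in iFGFR1 ran from -0.33 to 0.78.

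**Figure D2:**
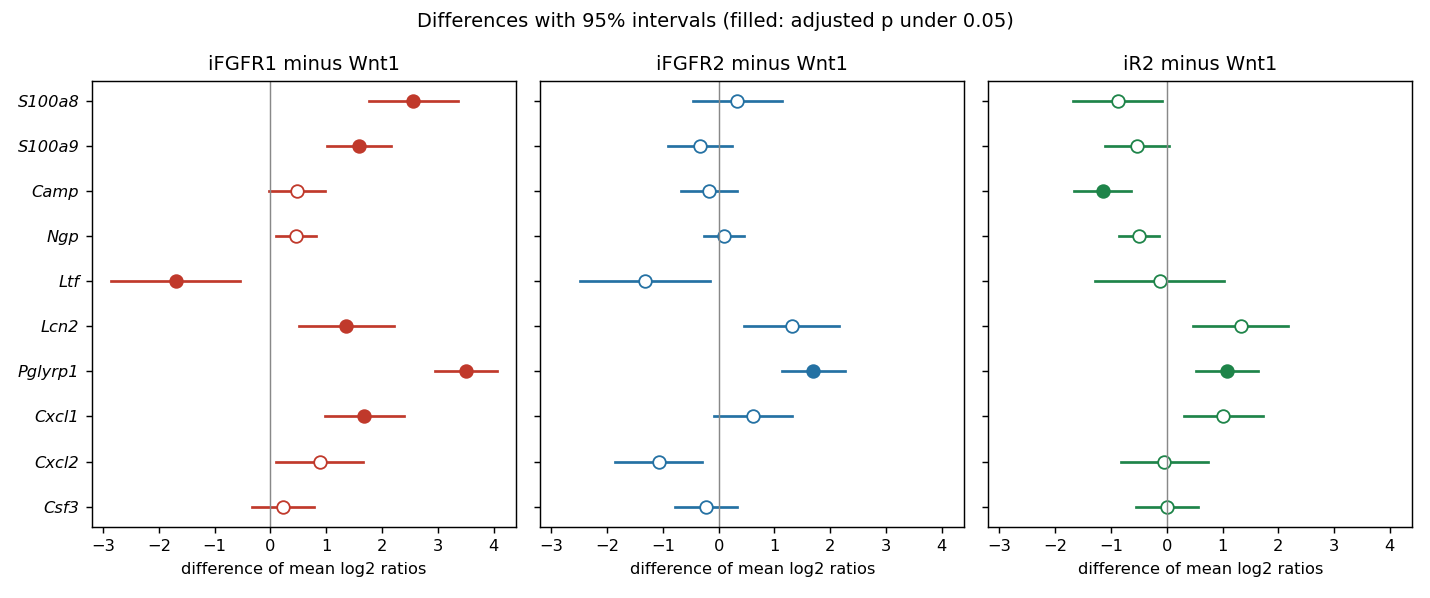
Differences of mean log2 ratio from Wnt1 with 95% intervals (horizontal axis) for each of the 10 genes in iFGFR1, iFGFR2 and iR2. Filled points passed the limma test at an adjusted p under 0.05: 6 in iFGFR1, 1 in iFGFR2 and 2 in iR2, with Pglyrp1 filled in each panel.

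The receptor groups were then set against each other, which leaves the Wnt1 arrays out of the difference. Between iFGFR2 and iFGFR1, 4 of the 10 passed, all lower in iFGFR2, where 2.13% of all genes passed. The differences were -2.23 for S100a8 (limma adjusted p = 0.00632), -1.93 for S100a9 (0.00172), -1.95 for Cxcl2 (0.0147) and -1.80 for Pglyrp1 (0.00229). No iFGFR2 array reached the lowest iFGFR1 array for any of these 4 genes. The Cxcl2 call was lost without iFGFR2 replicate 4 (adjusted p = 0.0582), with only the compared arrays in the fit (0.124) and with arrays scaled to the same spread (0.059), where that of S100a9 was lost as well (0.0651).

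Between iR2 and iFGFR1, 5 of the 10 passed, all lower in iR2, where 11.7% of all genes passed. The differences were -3.44 for S100a8 (10.9-fold, SE 0.42, limma adjusted p = 5.31e-05), -2.42 for Pglyrp1 (5.31e-05), -2.13 for S100a9 (0.00022), -1.63 for Camp (0.000712) and -0.95 for Ngp (0.00279). No iR2 array reached the lowest iFGFR1 array for any of them. The calls of Camp and Ngp were lost with the title number as a covariate (adjusted p = 0.119 and 0.242), and that of Ngp under quantile normalization (0.218). Between iR2 and iFGFR2, 0 of the 10 passed limma's test, where 1.34% of all genes did. At an unadjusted p under 0.05 the count was 5, and it was 4 after adjustment with array weights and 4 with arrays scaled to the same spread.

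Lcn2 did not separate the receptor groups: it differed by -0.05 between iFGFR2 and iFGFR1 (95% interval -0.98 to 0.88) and by -0.03 between iR2 and iFGFR1 (95% interval -0.96 to 0.90). These intervals leave room for nearly a doubling either way. Cxcl1 was highest in iFGFR1 by its mean (2.26 ± 0.54, SD, n = 4), but the differences of iFGFR2 and iR2 from it, -1.06 and -0.67, did not pass (limma adjusted p = 0.15 and 0.268). By group mean, S100a8 ran iFGFR1, iFGFR2, Wnt1, iR2 from high to low, S100a9 ran iFGFR1, Wnt1, iFGFR2, iR2, and Pglyrp1 ran iFGFR1, iFGFR2, iR2, Wnt1. Of these neighbours, the steps from iFGFR1 to the next group passed for all 3 genes and the step from iR2 to Wnt1 passed for Pglyrp1.

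Array by array, the genes did not vary as a block. With each group's mean removed, Pearson's r over the 18 arrays was 0.68 for S100a8 with S100a9 and 0.67 for Pglyrp1 with Lcn2. Lcn2 also varied with S100a9 (0.58) and S100a8 (0.50). Cxcl1 and Cxcl2 showed little relation (-0.15), as did Camp and Ngp (0.11), although Camp and Ngp reached 0.74 with the group means left in. S100a8 and Pglyrp1 likewise had an r of 0.72 with the group means in and 0.11 without them. Camp ran against S100a9 within groups (-0.63). These correlations are descriptions of arrays that share 1 reference. Wnt1 replicate 3, where S100a8, S100a9, Lcn2, Ltf and Pglyrp1 each had their highest Wnt1 value and Camp, Cxcl1, Cxcl2 and Csf3 their lowest, takes part in several of them.

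**Figure D3:**
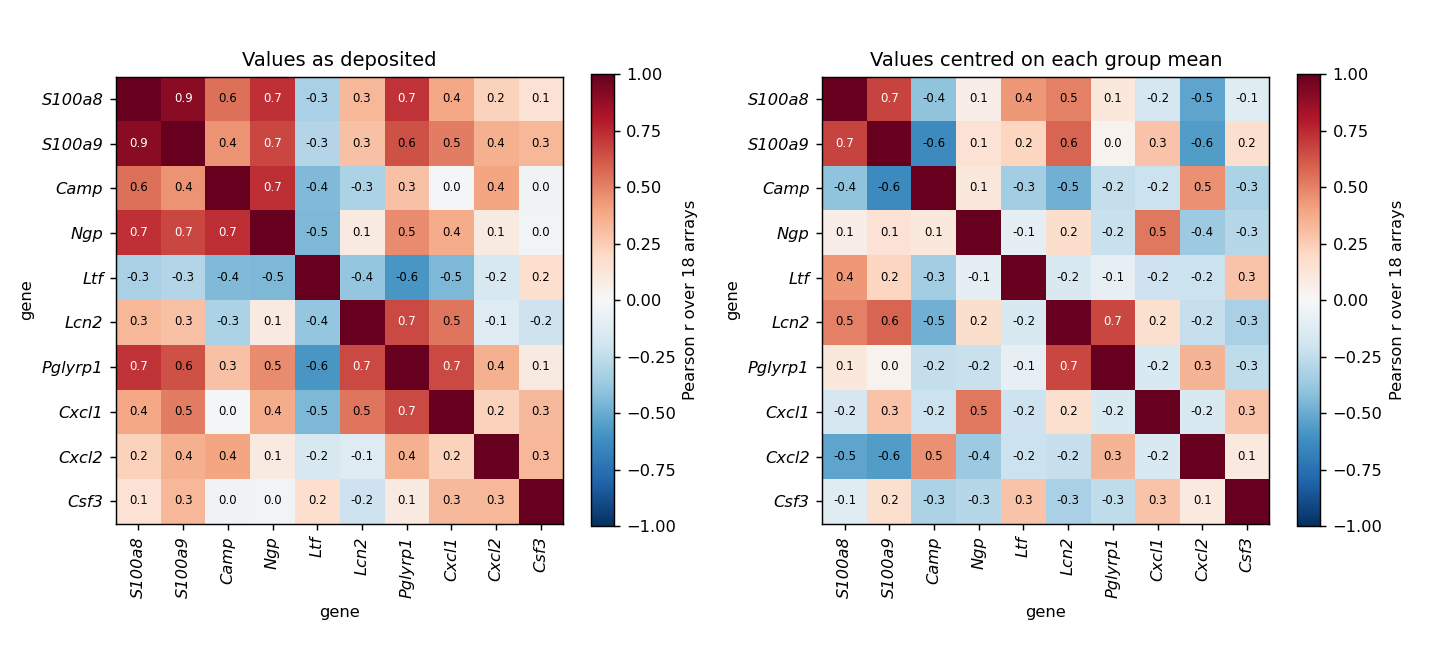
Pearson's r between each pair of the 10 genes over 18 arrays (colour and printed value, rounded), with the values as deposited (left) and with each group's mean removed (right). From left to right, S100a8 with S100a9 goes from 0.90 to 0.68, Pglyrp1 with Lcn2 from 0.66 to 0.67 and Camp with Ngp from 0.74 to 0.11.

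The genes whose pattern within groups was most like each of the 10, by the same correlation over 18 arrays, were mostly not neutrophil genes. Pdlim3 (0.91) stood nearest to S100a8 and Col6a2 (0.92) nearest to S100a9, followed for S100a9 by Csf2rb (0.89), a cytokine receptor subunit of myeloid cells. Nearest to Lcn2 were Echdc3 (0.94), Trf (0.92), which encodes transferrin, and Laptm5 (0.91), a lysosomal gene of blood cells. Ltbp3 (0.84) stood nearest to Pglyrp1, Bcar1 (0.94) to Ltf and Arhgap5 (0.83) to Cxcl1. With 16887 genes to choose from and 18 arrays, values of this size are a ranking and not a test.

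Genes beyond the 10 were counted from the neutrophil list. Of its 31 measured granule and surface genes, 4 rose and 2 fell in iFGFR1, with a median difference of 0.16, where 15.4% of all genes passed, so the count is near the background. Padi4, the enzyme that citrullinates histones when neutrophils release chromatin, rose by 2.22 (SE 0.28, limma adjusted p = 4.6e-05) from -0.29 ± 0.65 (SD, n = 6) to 1.93 ± 0.30 (SD, n = 4). Cxcr2, the receptor of Cxcl1 and Cxcl2, rose by 0.83 (SE 0.20, limma adjusted p = 0.00979). For both genes the 4 iFGFR1 arrays lay above every Wnt1 array. The other risen genes were Stfa2 (1.53) and the chemoattractant receptor gene Fpr2 (0.90), which fall outside the naming rule and were chosen after their values were seen.

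The fallen genes of that list were Prtn3, the serine protease proteinase 3, and Hp, haptoglobin, which is also made by liver and epithelium. Prtn3 differed from Wnt1 by -1.28 in iFGFR1, -1.01 in iFGFR2 and -0.87 in iR2 (limma adjusted p = 0.000273, 0.0096 and 0.0138). Hp differed by -2.33, -2.60 and -1.85 (0.00129, 0.00473 and 0.0148). Both thus fell in all 3 receptor groups, which share their controls. The primary granule genes Mpo and Elane, chosen after their values were seen, did not pass in iFGFR1, with means of -3.79 and -3.74 for Mpo and -0.33 and -0.32 for Elane in Wnt1 and iFGFR1. How far signal stood above background is not known for these genes, nor for Prtn3 (mean 0.74 in Wnt1).

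In iFGFR2, 0 of the 31 rose by limma's test (0 also at an unadjusted p under 0.05) and 2 fell (median -0.03), where 3.43% of all genes passed. In iR2, 1 rose and 4 fell (median -0.30), where 7.10% of all genes passed. Against iFGFR1, 1 rose and 8 fell in iR2 (median -0.50), where 11.7% of all genes passed. In iR2 the fallen genes included Fpr2 and Ctsg, the cathepsin G of primary granules, at -1.18 and -1.12 against Wnt1 (limma adjusted p = 0.0201 and 0.0197). The riser was Cybb (0.83), the catalytic subunit of the phagocyte oxidase, which macrophages and B cells also express, and it was chosen after its value was seen. Over the 31 genes the mean log2 ratio of an array ran from -1.15 to -0.75 in Wnt1, from -0.88 to -0.70 in iFGFR1, from -1.31 to -1.11 in iFGFR2 and from -1.58 to -1.31 in iR2. The iR2 arrays all lay below every Wnt1 array, and the highest Wnt1 array was again replicate 3.

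Other signals that draw neutrophils, and a list of attractant feedback and NF-kB genes (Rela, Stat3 and Socs3 among them), were counted next. Against Wnt1, 15.4% of all genes passed in iFGFR1, 3.43% in iFGFR2 and 7.10% in iR2. Of 19 measured attractants and growth factors, 0 rose and 1 fell in iFGFR1 by limma's test (median 0.04): Il1b, the inflammatory cytokine, at -1.01 (adjusted p = 0.0264). At an unadjusted p under 0.05, 3 were higher and 2 lower. In iR2 the single fall was Cxcl15 (-1.07). In iFGFR2 0 passed limma's test, and 2 were lower at an unadjusted p under 0.05. Of 24 measured attractant feedback and NF-kB genes, 1 rose (Cebpb, 0.83) and 2 fell (Icam1, -0.96, and Nfkbie, -0.75) in iFGFR1 (median -0.26). That count is near the share of all genes. In iFGFR2 1 of them fell (Zc3h12a, -0.99), and at an unadjusted p under 0.05, 7 were lower and 1 higher (median -0.44). The mean of the list ran from -0.14 to 0.02 on the iFGFR2 arrays, each below every Wnt1 array (0.15 to 0.92). In iR2 0 passed limma's test, with 1 lower at an unadjusted p under 0.05.

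A list of antimicrobial and acute phase genes, which also held Cd14, Tlr2, Tlr4, Myd88 and Lalba, had 16 measured genes. Of these, 1 rose and 2 fell in iFGFR1, where 15.4% of all genes passed. Pglyrp2, a relative of Pglyrp1, was at 0.87, the mucin gene Muc1 at -0.64 and Wfdc2 at -2.03. In iFGFR2 1 rose and 0 fell, and in iR2 1 rose and 1 fell, where 3.43% and 7.10% of all genes passed. The iR2 fall was Reg3g, at -1.555 (limma adjusted p = 0.00476), with all 4 iR2 arrays below every Wnt1 array. Chil1, a chitinase-like protein of inflamed tissue, rose by 1.86 in iFGFR2 and by 1.76 in iR2, but its highest Wnt1 array, replicate 3 at 2.65, lay above every array of both groups. Other genes of the S100 family were counted beside calprotectin, on a list that also held Ager and S100pbp, which are not S100 genes themselves. Of 13, 1 rose and 3 fell in iFGFR1 (median -0.49), 1 rose and 4 fell in iFGFR2 (median -0.72), and 1 rose and 2 fell in iR2 (median -0.40), with S100a4 at -1.41, -2.09 and -1.78.

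Markers of other cells were set beside the 10 genes, and their part in the results was not tested. Squamous keratinocytes make calprotectin. Of 17 of their markers, 3 rose and 0 fell in iFGFR1, a count near the 15.4% of all genes that passed (Klk7 at 5.19, Calm4 at 2.18 and Krtdap at 1.86). At an unadjusted p under 0.05, 5 were higher and 1 lower. The mean of the list was -0.91 in iFGFR1 (arrays -1.31 to -0.65) against -1.56 in Wnt1 (-1.69 to -1.44). In iFGFR2 0 rose and 0 fell by limma's test (1 lower at an unadjusted p under 0.05), and in iR2 1 rose, where 7.10% of all genes passed. Klk7 stood at 2.22, -0.10, 1.15 and 1.24 on the iFGFR1 arrays, and its lowest iFGFR1 array, replicate 2, was also the lowest for S100a8 and S100a9. On iR2 replicate 4 the squamous mean was -0.89, within the iFGFR1 range. Calm4 (-1.99) was within the iFGFR1 range too, but Klk7 (-2.70) and Krtdap (-3.14) lay below every iFGFR1 array (lowest -0.10 and -2.75). On that array S100a8 was at -6.67 and S100a9 at -6.62, both within the range of the other iR2 arrays. On Wnt1 replicate 3, Klk7 (-0.08), Calm4 (-3.97), Krtdap (-2.22), S100a8 (-3.80) and S100a9 (-5.20) each had their highest Wnt1 value. Other squamous markers did not go along: Sbsn (-2.98) had its lowest Wnt1 value there, and Krt17 (0.38) and Sprr1b (-0.17) were not at their highest. The squamous mean on that array was -1.44, close to -1.48 on Wnt1 replicate 2.

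Against Wnt1, the share of all genes that passed was 15.4% in iFGFR1, 3.43% in iFGFR2 and 7.10% in iR2. Of 15 macrophage markers, 2 rose and 3 fell in iFGFR1, and 0 passed limma's test in iFGFR2 and in iR2 (7 and 5 at an unadjusted p under 0.05). Of 10 fibroblast markers, 0 rose and 7 fell in iFGFR1, and 0 rose and 1 fell in iFGFR2 and in iR2. Of 7 red blood cell markers, which move with blood left in the tissue, 2 rose (Klf1, 1.06, and Epb42, 1.04) and 1 fell (Hba-a1, -1.20) in iFGFR1. In iFGFR2 1 rose and 0 fell. In iR2 0 passed limma's test, and 3 were lower at an unadjusted p under 0.05. The mean of these markers was -2.96 in Wnt1 (arrays -3.08 to -2.88), -2.82 in iFGFR1 and -3.40 in iR2 (arrays -3.61 to -3.09). It was lowest in iR2, as were Camp and Ngp, but Hba-a1 ran otherwise. Hba-a1 stood from -2.51 to -1.63 on the Wnt1 arrays, from -3.81 to -2.63 in iFGFR1 and from -2.73 to -2.18 in iR2. The part of blood in the results was not tested. Of 11 luminal markers, 4 rose and 0 fell in iFGFR1, 1 rose and 0 fell in iFGFR2, and 2 rose and 0 fell in iR2. At an unadjusted p under 0.05, 7 were higher in iFGFR1, 3 in iFGFR2 and 7 in iR2. Of 13 T and NK cell markers, 0 rose and 4 fell in iR2, 1 rose and 1 fell in iFGFR1, and 0 passed limma's test in iFGFR2 (1 higher at an unadjusted p under 0.05). Markers of B cells, mast cells with eosinophils, and endothelium passed in at most 2 of 8, 1 of 10 and 1 of 9 genes in any comparison with Wnt1. The mast cell and eosinophil list was also low in iR2, where its mean ran from -1.67 to -1.54, below every Wnt1 array (-1.32 to -0.99). At an unadjusted p under 0.05, 5 of its 10 genes were lower there and 0 higher (median -0.47).

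**Figure D4:**
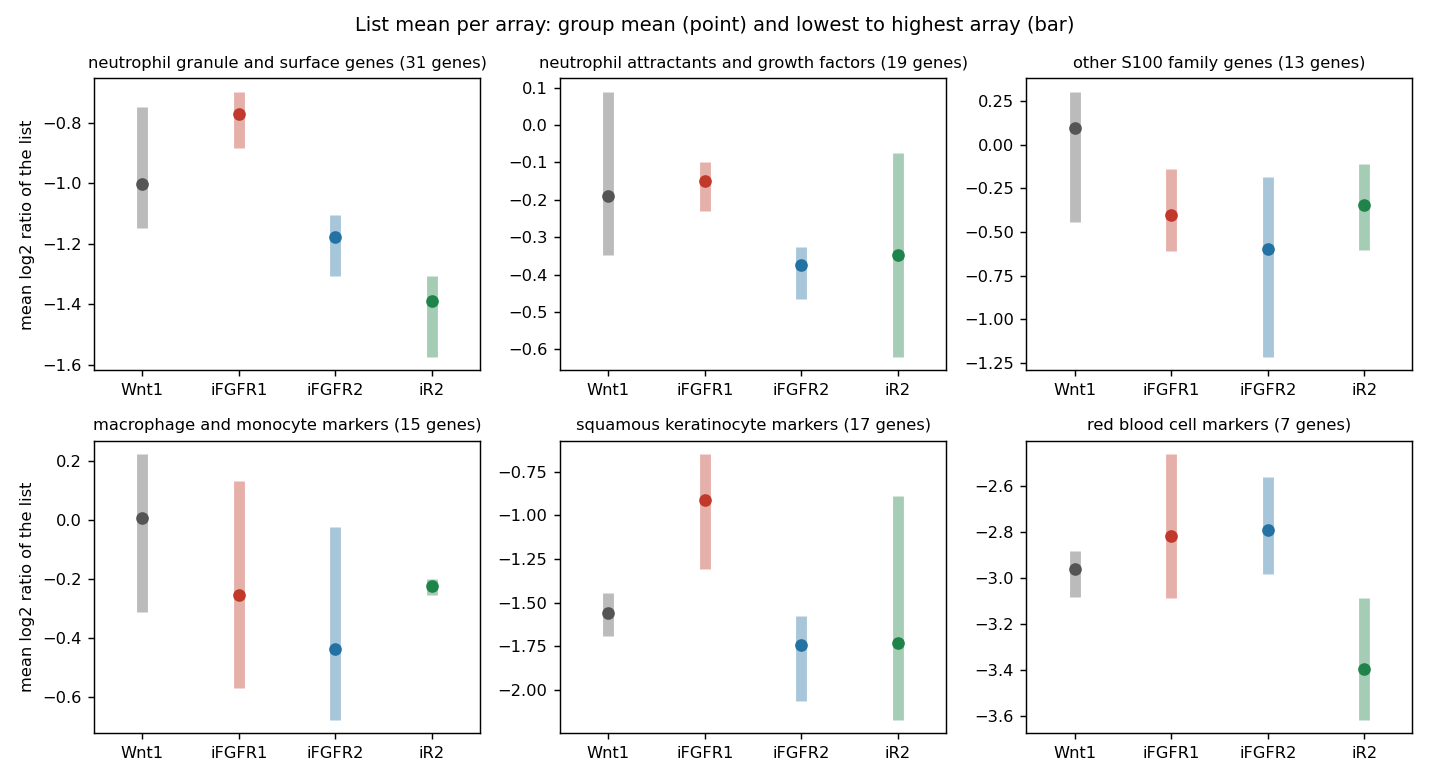
Mean log2 ratio of 6 gene lists (vertical axis, a scale of its own in each panel) by group. Points are group means, and bars run from the lowest to the highest array. The neutrophil list is highest in iFGFR1 (-0.77) and lowest in iR2 (-1.39), the squamous list is highest in iFGFR1 (-0.91), and the red blood cell list is lowest in iR2 (-3.40).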

How the data were processed

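The values are 22575 features on 18 arrays with 2 channels, in a table the authors deposited as log ratios, taken as log2. The direction, tumour (Cy5) over whole-mouse reference (Cy3), was taken from the dyes per the labels. Tumour RNA was extracted with a Qiagen RNeasy kit and reference RNA with TRIZOL, per the labels' protocols. For scanner, background correction, normalization, log base and missing values, the sources used here give no details. No cell was empty, and column medians ran from -0.02 to 0.01. No 2 arrays held identical values (highest r 0.932).

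Platform symbols named 18658 features, 30 had several symbols and 3887 none. Features of 1 symbol were averaged to 16887 genes. Tests ran in R 4.3.3 with limma 3.58.1: eBayes after lmFit, 4 groups in 1 model without covariates, checked on simulated data. The number of arrays limits the precision. The 10 genes and the 14 gene lists were chosen with earlier results of these data known. Text names every one of the 10, up to 4 passing genes per list and comparison by smallest p, and the nearest genes by correlation; genes outside this rule are marked where they stand. Alternatives were quantile normalization, centring, array weights, a common spread (1 median absolute deviation), robust priors, feature choice, a variance filter, a stricter threshold of 0.01, fewer arrays, the title number as covariate and leaving out each array.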

Additional observations from a re-analysis of the deposited data

Results flagged for a closer look

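Of 40 pairs of a gene and a group, 6 held an array far from the rest of its group by Dixon's ratio, a rule by which chance alone marks about 1 in 20. S100a8 stood at -3.80 on Wnt1 replicate 3, where the other Wnt1 arrays ran from -6.27 to -5.72. On the same array Camp was lowest, at -5.02 against -4.53 to -4.43. S100a8 stood at -5.82 on iFGFR2 replicate 1 against -5.10 to -5.05 on the others, and at -5.94 on iR2 replicate 1 against -6.68 to -6.63. S100a9 stood at -6.81 on iFGFR2 replicate 2 against -6.32 to -6.25. Csf3 stood at -0.076 on iR2 replicate 3 against 0.34 to 0.40.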

How the results depend on the processing

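No paired analysis was possible because the replicate numbers follow accession order and the title numbers differ on every array. With iFGFR1 against Wnt1 (6 of the 10 genes passing) and the F test (8), every alternative stayed within 1.5 times the count, and leaving out an array gave 4 to 6 and 7 to 9. For iFGFR2 against Wnt1 the count of 1 became 3 with array weights and was 1 to 2 with an array left out. For iR2 against Wnt1 the count of 2 became 7 with arrays scaled to 1 median absolute deviation, 5 with array weights, 4 with only the compared arrays, 1 at a threshold of 0.01 and 0 with the title number, and was 1 to 4 with an array left out. That scaling gave 3 higher and 4 lower, and quantile normalization 2 higher and 0 lower, against 1 and 1. For iFGFR2 against iFGFR1 the count of 4 became 2 with that scaling (3 to 4 with an array left out). For iR2 against iFGFR1 the count of 5 became 3 with the title number (5 to 6), and scaling gave 1 higher and 5 lower against 0 and 5. For iR2 against iFGFR2 the count of 0 became 4 with that scaling, 4 with array weights and 1 with only the compared arrays (0 to 1). The cause was not tested.

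Differences that changed sign passed the test in neither form. Against Wnt1 with the title number, Csf3 was -0.26 in iFGFR1 and -1.36 in iR2, and Camp 0.005 in iFGFR2. With arrays scaled to the same spread, S100a9 was 0.34 and Camp 0.39 in iFGFR2, and Cxcl2 was 0.043 and Ltf 0.28 in iR2. Quantile normalization gave Ngp -0.001 in iFGFR2 and Cxcl2 0.007 in iR2, and array weights gave Ltf 0.005 and Csf3 -0.084 in iR2. For Lcn2 between iR2 and iFGFR1 the values were 0.10, 1.04, 0.009 and 0.37 with quantile normalization, scaling, array weights and title number. Between iR2 and iFGFR2, S100a9 was 0.42 with quantile normalization, and Ltf -0.34 and Csf3 -0.75 with the title number.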
